A study of Mus musculus with 3 samples.

Results

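The genes described here are 7 of the 20586 genes in a single-cell count table of mouse thalamus, taken by name: the purinergic receptor genes P2ry12, P2ry13, P2ry6, P2rx4 and P2rx7, the lipid receptor gene Gpr34, and Entpd1, which encodes the nucleotide-degrading surface enzyme CD39. All 7 were detected in each of 3 libraries of CD45+ cells, collected 4 hours after intracerebroventricular injection. In the first library (cKO IL-33) the mice were Cx3cr1-creER Heterozygous:ST2 Flox homozygous and received the cytokine IL-33. ST2, encoded by Il1rl1, is the receptor chain that binds IL-33. In the second (WT IL-33) they were Cx3cr1-creER Heterozygous without the floxed alleles and received IL-33. In the third (WT vehicle) they had that same genotype and received vehicle. All 3 groups thus carried the creER, a tamoxifen-inducible recombinase driven from Cx3cr1, a gene of microglia and other mononuclear phagocytes. A vehicle-injected library of floxed mice was not analysed here. The labels state neither the number and age of the mice per library nor any tamoxifen treatment.

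Purinergic receptors sense nucleotides outside the cell. P2Y receptors couple to G proteins, whereas P2X receptors are channels opened by ATP. In the brain, P2Y12 is a hallmark receptor of resting microglia and steers their processes towards sites that release ATP or ADP, P2Y6 responds to UDP and has been linked to phagocytosis, and P2X7 opens at high ATP and is known for its link to inflammasome activation and release of interleukin-1β. CD39 removes phosphates from ATP and ADP, and so lowers the amount of ligand for these receptors. GPR34 is related to P2Y12 in sequence but its ligand is lysophosphatidylserine, so among these genes it is neither a nucleotide receptor nor an enzyme.

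The receptor genes include neighbouring pairs. In the GENCODE M21 annotation of GRCm38, P2ry12 (chr3:59216272-59262871) and P2ry13 (chr3:59207892-59210882) lie on the minus strand, 5389 bases apart, with no coding gene between them. Both lie inside Med12l, which is on the other strand and has exons that overlap exons of P2ry12, and the sources do not say how strand was used in counting, so reads of that pair could be mixed. P2rx7 (chr5:122643911-122691432) and P2rx4 (chr5:122707544-122729738) are on the plus strand, 16111 bases apart, also with no coding gene between them. Gpr34 (chrX:13632089-13640858, plus strand) lies inside Cask, which is on the other strand. P2ry6 (chr7:100937630-100974649, minus strand) and Entpd1 (chr19:40612366-40741602, plus strand) overlap no other coding gene.

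RefSeq promoter windows of build GRCm38.p6, each the 250 bases before an annotated start, were found for 5 of the 7 genes, and not used here for P2ry6 and Gpr34. They were searched on both strands for AGGAAG (the core bound by PU.1, a factor of the macrophage lineage), TGTGGT (RUNX), TGANTCA (AP-1), the interferon response motif (ISRE) and the NF-kB motif. The stretches around AGGAAG in the neighbours P2ry12 (chr3:59263020-59263049) and P2ry13 (chr3:59210912-59210941) are shown, read on the minus strand, because these genes were both lower after IL-33, with AGGAAG in capitals.
P2ry12: aagctaacaagaAGGAAGttccccagtgac
P2ry13: caaggggaaatgAGGAAGgaaaagcagtat
The first base of the motif lay 52 bases before the RefSeq start of P2ry12 and 47 before that of P2ry13. The P2ry12 window (chr3:59262986-59263235) does not adjoin the GENCODE span given above, so the annotations place that start differently. AGGAAG is common: 29.5% of 32851 promoter windows of this length held it. The whole windows of P2ry13 (chr3:59210883-59211132, minus strand) and P2rx4 (chr5:122707294-122707543, plus strand) are shown next, as one gene that was lower and one that was higher after IL-33, with any match to the 5 motifs in capitals.
P2ry13: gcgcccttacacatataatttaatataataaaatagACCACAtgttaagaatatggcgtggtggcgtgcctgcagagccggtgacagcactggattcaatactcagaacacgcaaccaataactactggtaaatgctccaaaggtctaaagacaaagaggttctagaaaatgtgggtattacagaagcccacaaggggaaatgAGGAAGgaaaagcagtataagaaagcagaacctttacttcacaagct
P2rx4: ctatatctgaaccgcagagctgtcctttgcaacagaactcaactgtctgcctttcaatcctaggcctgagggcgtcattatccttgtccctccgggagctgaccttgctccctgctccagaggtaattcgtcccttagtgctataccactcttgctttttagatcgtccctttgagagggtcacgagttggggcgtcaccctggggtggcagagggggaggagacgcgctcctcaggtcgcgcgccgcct
The P2ry13 window also held ACCACA, the other strand of the RUNX motif, 214 bases before the start, a motif present in 14.05% of windows. None of the 5 motifs had a match in the P2rx4 window. The first annotated window of P2rx7 held 1 AP-1 match, found in 6.75% of windows, and its second held 1 AGGAAG. The first window of Entpd1 held no match and its second held 2 overlapping AGGAAG matches.

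The cKO IL-33 library held 2687 cells, WT IL-33 2202 and WT vehicle 2709, and UMIs (unique molecular identifiers, 1 per captured RNA molecule) totalled 17480958, 12127214 and 18269042 in the same order. Each group was 1 library, so no comparison between groups could be tested. Every interval given here is at 95% and covers counting error only, not the variation between mice. The WT IL-33 library was the shallowest (median 3951 UMIs per cell, where cKO IL-33 had 5119 and WT vehicle 5544). By Xist and Y-linked UMIs, the cKO IL-33 library was called female in 2648 of 2687 cells and the WT vehicle library male in 2701 of 2709, whereas WT IL-33 held 1107 female-called and 1095 male-called cells. Genotype and treatment therefore cannot be told apart from sex in the pooled ratios, and values within a sex are given below. The gene targeted in the cKO, Il1rl1, gave 224 UMIs there, 70 in WT IL-33 and 212 in WT vehicle. Such tags come from the 3′ end, and the sources do not name the floxed exons, so the count does not check the deletion. Ptprc, which encodes CD45, was at 411, 528 and 368 CPM (UMIs of the gene per 1000000 UMIs of the library) in the same order. At least 3 of 8 microglial markers outside the 7 genes had UMIs in 7593 of 7598 cells (99.9%), and 2 cell barcodes occurred in more than 1 library. Each CPM sums a library, so fewer expressing cells and less RNA per cell cannot be told apart in it.

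After IL-33 in WT mice the ADP receptor genes and Gpr34 were far lower, Entpd1 and P2rx7 were moderately lower, and P2ry6 and P2rx4 were higher. P2ry12 had 11114 UMIs in WT IL-33, a level of 916 CPM (899 to 934), against 65806 UMIs and 3602 CPM (3575 to 3630) in WT vehicle. The ratio was 3.93-fold lower (3.85 to 4.01), and 1.12% of the genes compared had a lower ratio. P2ry13, a further ADP receptor gene, stood at 230 CPM (222 to 239) in WT IL-33 against 509 CPM (499 to 520) in WT vehicle, 2.21-fold lower (2.12 to 2.31). The ratio of P2ry12 to P2ry13 UMIs was 3.98 (3.82 to 4.15) in WT IL-33 and 7.07 (6.92 to 7.23) in WT vehicle, so within the adjacent pair P2ry12 was the more reduced. Gpr34 stood at 356 CPM (346 to 367) in WT IL-33 against 1177 CPM (1161 to 1193) in WT vehicle, 3.30-fold lower (3.20 to 3.41), below all but 2.14% of genes.

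The adjacent ATP-gated channel genes differed in opposite directions. P2rx7 reached 80.0 CPM (75.03 to 85.2) in WT IL-33 against 154 CPM (148 to 159) in WT vehicle, 1.92-fold lower (1.79 to 2.07). P2rx4, whose channel opens at lower ATP than P2X7 and sits largely in lysosomes, reached 108 CPM (102 to 114) in WT IL-33 against 67.9 CPM (64.1 to 71.8) in WT vehicle, 1.59-fold higher (1.47 to 1.71). The UDP receptor gene P2ry6 was also higher, at 684 CPM (670 to 699) in WT IL-33 against 492 CPM (482 to 502) in WT vehicle, a ratio of 1.39 (1.35 to 1.43). The ratio of P2ry12 to P2ry6 UMIs was 1.34 in WT IL-33 and 7.32 in WT vehicle. UMIs are not scaled for length, so such a ratio is read between libraries and not as one gene's level against another's. Entpd1, the only enzyme gene among the 7, had 231 CPM (222 to 239) in WT IL-33 against 334 CPM (326 to 342) in WT vehicle, 1.45-fold lower (1.38 to 1.52).

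At 2-fold, 3 of the 7 genes (P2ry12, Gpr34 and P2ry13) were lower in WT IL-33 than in WT vehicle and 0 were higher. Over the 4104 genes that reached 50 CPM in one of these libraries, 8.75% were lower by that much and 12.8% were higher. At 1.5-fold, 4 of the 7 were lower and 1 (P2rx4) was higher, against 18.8% and 23.3% of genes. The median log2 ratio was -0.94 for the 7 genes and 0.03 for all 4104. Among male-called cells alone, P2ry12 in WT IL-33 was at 0.196 of its level in WT vehicle, Gpr34 at 0.226 and Entpd1 at 0.603, each further from 1 than in all cells.

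**Figure D1:**
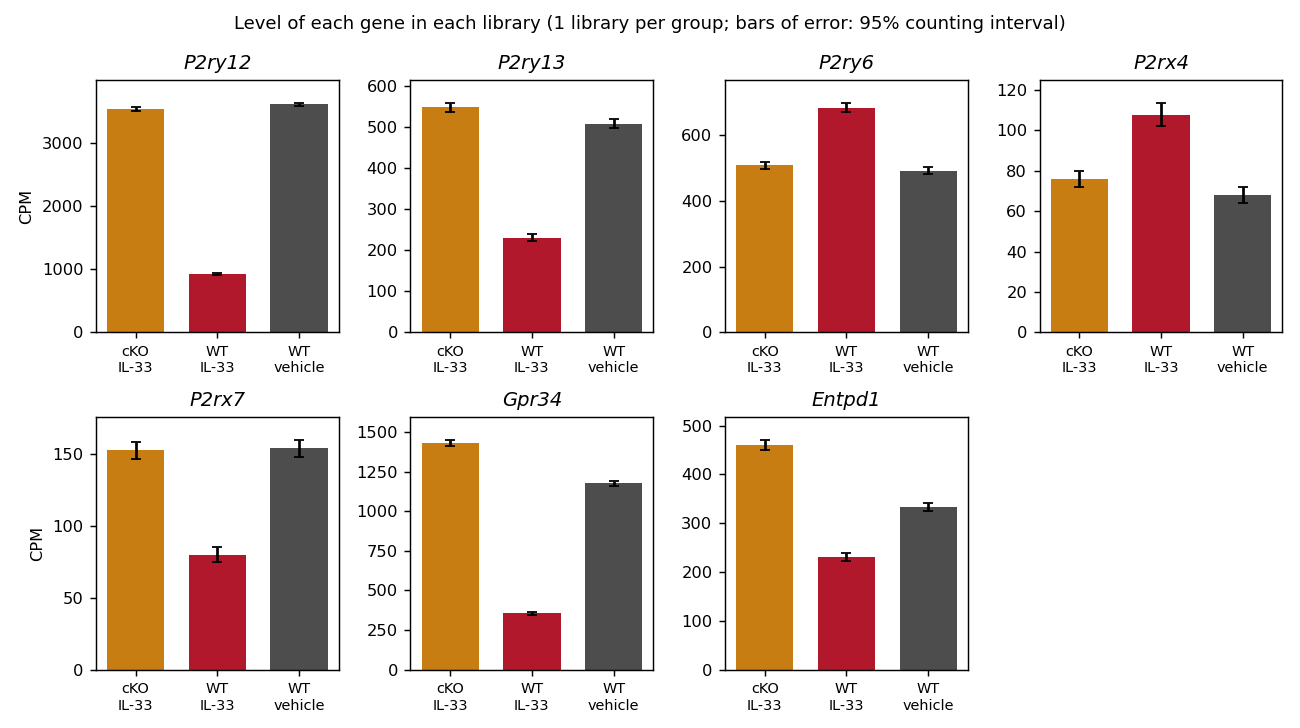
Level of each of the 7 genes in each library, in CPM on an axis of its own that starts at 0; bars stand for the summed UMIs of 1 library per group and error bars for 95% counting intervals. P2ry12, P2ry13, P2rx7, Gpr34 and Entpd1 are lowest in WT IL-33, whereas P2ry6 (684 CPM) and P2rx4 (108 CPM) are highest there.

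With the floxed ST2 alleles, the genes that were lower after IL-33 in WT mice were higher, and those that were higher there were lower. Between cKO IL-33 and WT IL-33, which share the cytokine, P2ry12 was at 3527 CPM (3499 to 3555) in cKO IL-33 against 916 CPM in WT IL-33, 3.85-fold higher (3.77 to 3.93). Gpr34 was at 1431 CPM (1413 to 1449) in cKO IL-33 against 356 CPM in WT IL-33, 4.02-fold higher (3.89 to 4.15). P2ry13 was at 549 CPM (538 to 560) in cKO IL-33, 2.38-fold higher (2.28 to 2.49) than in WT IL-33. Entpd1 stood just under 2-fold, at 460 CPM (450 to 470) in cKO IL-33 against 231 CPM in WT IL-33, a ratio of 1.996 (1.91 to 2.08). P2rx7 was at 152 CPM (147 to 158) in cKO IL-33, 1.90-fold higher (1.77 to 2.05). P2ry6, at 508 CPM (498 to 519) in cKO IL-33, was 1.35-fold lower (1.31 to 1.39), and P2rx4, at 75.9 CPM (71.8 to 80.0), was 1.42-fold lower (1.31 to 1.53).

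Of the 7 genes, 3 were at least 2-fold higher in cKO IL-33 than in WT IL-33 and 0 were at least 2-fold lower. Of the 4151 genes compared, 10% were higher by that much and 11.4% lower. The median log2 ratio of the 7 genes was 0.997, against -0.02 for all genes. In female-called cells without Y-linked UMIs, the ratio of cKO IL-33 to WT IL-33 was 3.19 for P2ry12, 3.21 for Gpr34 and 1.79 for Entpd1. Each was smaller than in all cells. This comparison and the one between WT IL-33 and WT vehicle share the WT IL-33 library, so opposite ratios in them are not independent of each other.

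Between cKO IL-33 and WT vehicle, Entpd1 and Gpr34 differed most among the 7 genes. Entpd1 was at 460 CPM in cKO IL-33 against 334 CPM in WT vehicle, a ratio of 1.38 (1.33 to 1.43) that lay above 96.8% of the 3585 genes compared. Gpr34 was at 1431 CPM in cKO IL-33 against 1177 CPM in WT vehicle, a ratio of 1.22 (1.19 to 1.24), above 89.2% of genes. Both genes were thus higher in the library of the floxed mice, which was also the library of female-called cells, and the part of sex in this was not tested. P2rx4 (1.12, 1.03 to 1.21), P2ry13 (1.08, 1.05 to 1.11) and P2ry6 (1.03, 1.003 to 1.06) had ratios just over 1. P2rx7 had a ratio of 0.991 (0.940 to 1.05) and P2ry12 one of 0.979 (0.969 to 0.990), whose interval lies just under 1. At 2-fold, 0 of the 7 genes were lower in cKO IL-33 and 0 higher, beside 0.139% and 0.335% of all genes, and at 1.5-fold the counts were again 0 and 0, beside 0.558% and 1.73%.

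**Figure D2:**
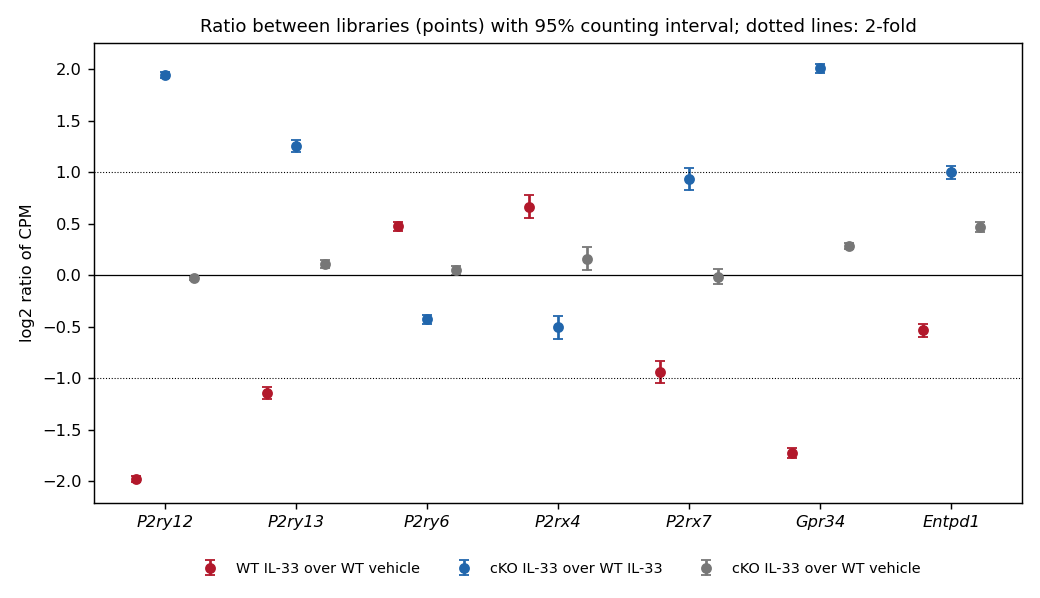
Log2 ratio of the CPM of each gene for the 3 pairs of libraries (points), with 95% counting intervals; dotted lines mark 2-fold. P2ry12 and Gpr34 lie furthest from 0 in both comparisons that include WT IL-33, and Entpd1 is the highest point between cKO IL-33 and WT vehicle.

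The lower sums were seen cell by cell. To set cells of unequal depth side by side, each was thinned to 3000 UMIs, which left 2601 cells of cKO IL-33, 1849 of WT IL-33 and 2632 of WT vehicle and dropped 86, 353 and 77 shallower cells in the same order. P2ry12 then had a median of 10 UMIs per cell in cKO IL-33, 2 in WT IL-33 and 11 in WT vehicle. Cells with no P2ry12 UMI made up 0.384% of cKO IL-33, 25.04% of WT IL-33 (23.1 to 27.1) and 0.456% of WT vehicle. Most WT IL-33 cells thus still held P2ry12 UMIs, with a median of 1 in cluster 1 and 9 in clusters 0 and 2 of the deposited clustering described below. Thinning kept 1565 of the 1815 WT IL-33 cells of cluster 1 and 161 of the 246 in clusters 0 and 2. The thinned WT IL-33 shares therefore weigh cluster 1 more than the whole library does. Gpr34 had medians of 4, 0 and 3 UMIs in cKO IL-33, WT IL-33 and WT vehicle, and was without a UMI in 4.65%, 58.0% and 7.11% of those cells. Cells without UMIs of either P2ry12 or Gpr34 numbered 2 in cKO IL-33, 373 in WT IL-33 (20.2%, 18.4 to 22.1) and 5 in WT vehicle. Of the 463 WT IL-33 cells without P2ry12, 370 held P2ry6 UMIs.

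P2ry13 was without a UMI in 22.7% of cKO IL-33, 57.5% of WT IL-33 and 25.8% of WT vehicle cells. Entpd1 was without one in 27.7%, 55.3% and 37.7% of cells in that order, so its zero share in WT vehicle lay between the others. P2ry6 ran the other way, with zero shares of 24.99% in cKO IL-33, 16.7% in WT IL-33 and 26.0% in WT vehicle. For P2rx7 and P2rx4 most thinned cells had no UMI in any library: 64.2%, 79.3% and 62.8% for P2rx7, and 81.6%, 74.0% and 82.9% for P2rx4, in the same order of libraries. Without thinning, a P2ry12 UMI was found in 99.8%, 81.2% and 99.8% of cKO IL-33, WT IL-33 and WT vehicle cells, and a Gpr34 UMI in 98.8%, 50.7% and 97.8%. Nearly all cells were microglial by their markers, so no cell type that should lack these genes was there to measure the UMIs that free RNA contributes.

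**Figure D3:**
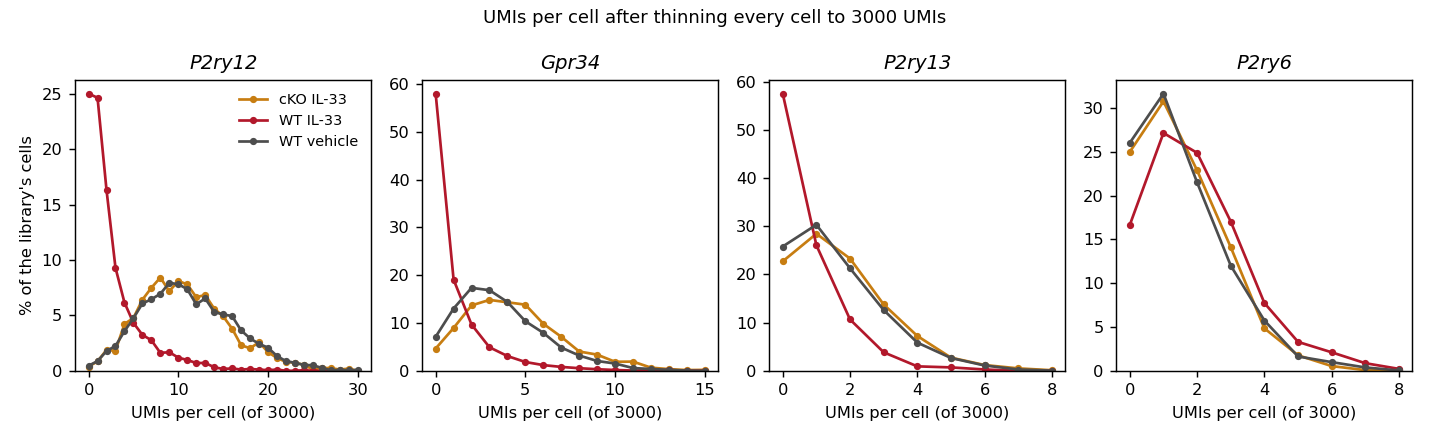
Share of cells (in %) by the number of UMIs of P2ry12, Gpr34, P2ry13 and P2ry6 after each cell was thinned to 3000 UMIs, with 1 line per library. For P2ry12 the WT IL-33 line starts at its highest point, 25.04% of cells at 0 UMIs, while the cKO IL-33 and WT vehicle lines peak near 10 UMIs; for P2ry6 the WT IL-33 line is shifted slightly to the right.

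The deposited clusters, numbered 0 to 5 by the authors, place these levels in cell states. None of the 7 genes was among the 10 leading genes of a cluster, but the clusters rest on the expression of these same cells, so the levels by cluster are a description. Cluster 0, led by Hpgd, Ypel3 and Mfng, held 1374 cells of cKO IL-33, 144 of WT IL-33 and 1327 of WT vehicle. Cluster 2, with Rnf150, Lifr and Il7r among its leaders, held 721, 102 and 515 cells in that order. Cluster 1, led by Ccr7, Marco, Ccl22, Il12b and Il1b, held 35, 1815 and 20 cells in that order, 82.4% of WT IL-33 cells. Since cluster 1 was nearly a single library, only its few cells from elsewhere set cell state apart from library. For P2ry12, the 35 cells of cKO IL-33 gave 2347 CPM (interval 2147 to 2561). The 20 cells of WT vehicle gave 2741 CPM (interval 2452 to 3056), whereas WT IL-33 gave 725 CPM. Gpr34 levels, listed for the same sums, were 1141, 841 and 260 CPM. With so few cells, the part of cell state and of library in these levels was not tested.

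P2ry12 was highest in cluster 2 of every library, at 4161 CPM in cKO IL-33, 3431 CPM in WT IL-33 and 4430 CPM in WT vehicle. In cluster 0 it was at 3562, 2661 and 3808 CPM in that order. In the clusters led by other programmes the libraries parted: cluster 3 (led by Pf4, Apoc1 and Mrc1) stood at 2712 CPM in cKO IL-33, 1001 CPM in WT IL-33 and 2970 CPM in WT vehicle. Cluster 5, led by interferon-induced genes such as Rsad2 and Ifit2, stood at 3038, 862 and 3204 CPM. The lowest P2ry12 level of a cluster with 50 or more cells was that of WT IL-33 in cluster 1, at 725 CPM (709 to 742). Cluster 4, led by cell division genes such as Mki67 and Top2a, was at 2409 CPM in cKO IL-33 against 2733 CPM in WT vehicle, below clusters 0, 2, 3 and 5 of the same library.

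Gpr34 had the same order in WT IL-33, at 1575 CPM in cluster 2, 1241 in cluster 0, 429 in cluster 3, 339 in cluster 5 and 260 in cluster 1. The intervals of clusters 3 (355 to 514) and 5 (280 to 407) overlap, so these neighbours in the order are not set apart. Entpd1 in WT IL-33 ran 549, 446, 297, 210 and 206 CPM over clusters 2, 0, 3, 5 and 1, where the last pair (165 to 265 and 198 to 215) overlaps as well. P2ry6 was instead higher in clusters 3, 5 and 1 of WT IL-33, at 814, 704 and 696 CPM, than in clusters 2 and 0, at 558.5 and 504 CPM. The interval of cluster 5 (618 to 799) overlaps those of clusters 3 (710 to 928), 1 (680 to 712) and 2 (491 to 633). In WT vehicle, clusters 0, 2, 3 and 5 all lay between 490.1 and 517 CPM for P2ry6. P2rx4 in WT IL-33 was at 147 CPM in cluster 3 (105 to 200), 126 in cluster 5, 109 in cluster 1, 91.6 in cluster 2 and 75.6 in cluster 0, with wide intervals that rest on 39 to 43 UMIs outside cluster 1.

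**Figure D4:**
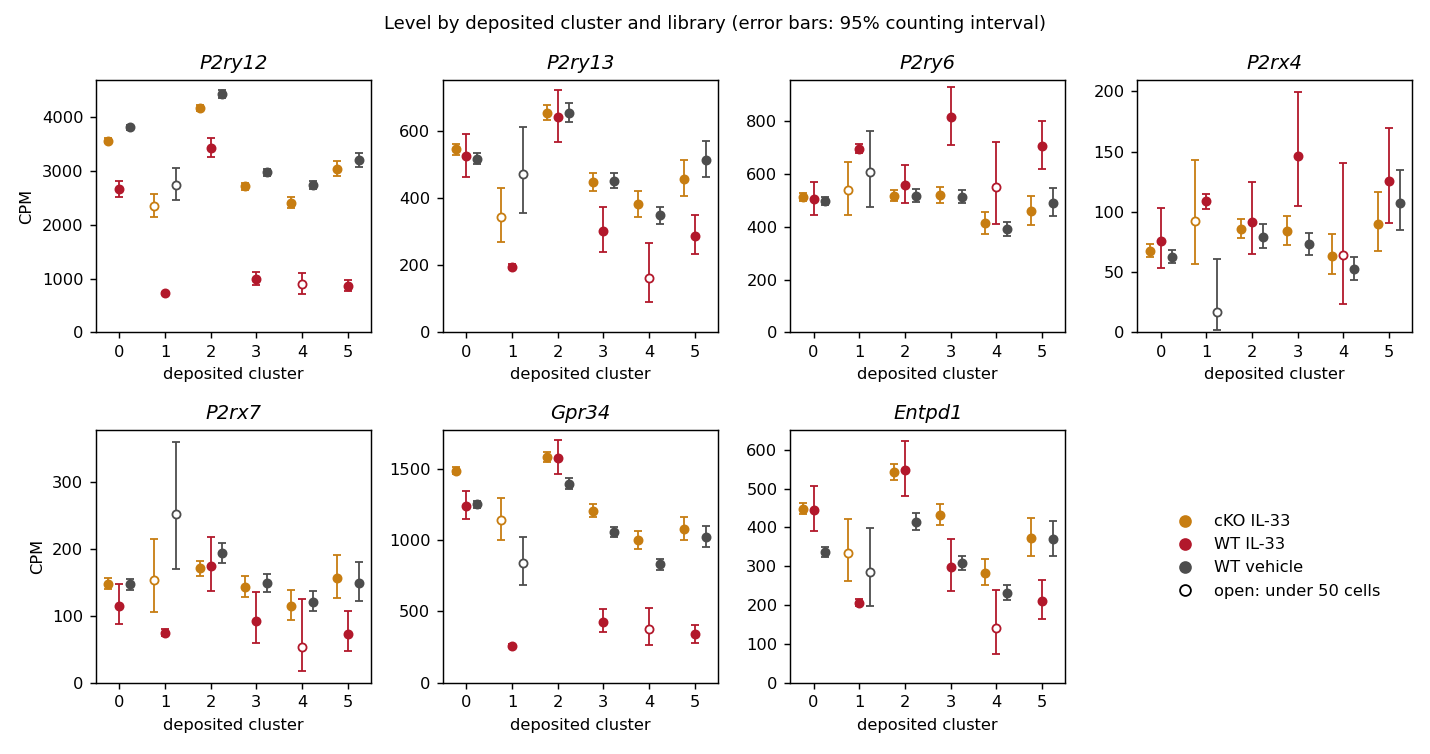
Level of each gene in CPM by deposited cluster and library, with 95% counting intervals; each gene has its own axis from 0, and open points mark sums of under 50 cells. In clusters 0 and 2 the WT IL-33 points of Gpr34 and P2ry13 lie beside those of the other libraries, while in clusters 3 and 5 they lie below them.

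Within the WT IL-33 library, the 1815 cells of cluster 1 were set beside the 246 cells of clusters 0 and 2. Gpr34 was at 260 CPM in cluster 1 and 1394 CPM in clusters 0 and 2, 5.35-fold lower. P2ry12 was at 725 CPM in cluster 1 and 3014 CPM in the others, 4.16-fold lower, P2ry13 was 2.95-fold lower, Entpd1 2.39-fold and P2rx7 1.90-fold. P2ry6 was at 696 CPM in cluster 1 and 529 CPM in clusters 0 and 2, a ratio of 1.31 (1.20 to 1.44), and P2rx4 had a ratio of 1.31 (1.04 to 1.67). Of the thinned cells, P2ry12 and Gpr34 were both without a UMI in 354 of 1565 (22.6%) in cluster 1 and in 1 of 161 (0.621%, 0.0157 to 3.41) in clusters 0 and 2. Cells of cluster 1 with more Il12b, the gene of the p40 subunit of interleukin-12, held fewer UMIs of most of the 7 genes: P2ry12 averaged 2.23 UMIs per 3000 in the 880 cells without Il12b, 1.77 in the 400 cells with 1 to 5 UMIs of it and 1.30 in the 285 cells with more than 5. Over the same strata P2ry13 averaged 0.705, 0.515 and 0.281, Gpr34 0.773, 0.620 and 0.474, and P2ry6 2.09, 2.08 and 1.51. Entpd1 averaged 0.67, 0.57 and 0.37, and P2rx7 0.25, 0.22 and 0.15. P2rx4 averaged 0.345, 0.325 and 0.274, with intervals that overlap. A like average over all genes was not taken, so whether the fall is particular to the 7 genes was not tested.

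Within clusters 0 and 2 the differences after IL-33 were much smaller, and Entpd1 had the opposite direction. In cluster 0 the ratio of WT IL-33 (144 cells) to WT vehicle (1327 cells) was 0.699 (0.661 to 0.737) for P2ry12, 0.994 (0.917 to 1.08) for Gpr34, 1.01 (0.892 to 1.14) for P2ry13 and 0.777 (0.588 to 1.01) for P2rx7. In cluster 2 (102 and 515 cells) P2ry12 was again lower, at 0.774 (0.734 to 0.817), whereas Gpr34 was higher, at 1.13 (1.04 to 1.22). P2ry12 was thus the gene of the 7 whose level was lower in WT IL-33 than in WT vehicle in both clusters by more than counting error. Entpd1 was at 446 CPM in WT IL-33 against 336 CPM in WT vehicle in cluster 0, a ratio of 1.33 (1.16 to 1.52), and at 549 and 415 CPM in cluster 2, a ratio of 1.32 (1.15 to 1.52). At 2-fold, 0 of the 7 genes were lower in WT IL-33 within cluster 0 or cluster 2, beside 1.18% and 1.13% of genes. A pooled difference of Entpd1 that is lower and within-cluster differences that are higher came from the same UMIs, split by cluster.

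In clusters 3 and 5, with 67 and 59 WT IL-33 cells, the ratios of P2ry12 and Gpr34 lay nearer to those of the pooled sums than in clusters 0 and 2. P2ry12 had a ratio of WT IL-33 to WT vehicle of 0.337 (0.298 to 0.380) in cluster 3 and 0.269 (0.238 to 0.304) in cluster 5, and Gpr34 one of 0.406 (0.335 to 0.488) and 0.332 (0.270 to 0.404). P2ry6 was higher in both, with ratios of 1.59 (1.37 to 1.82) and 1.44 (1.21 to 1.70), while P2rx4 had one of 2.01 (1.40 to 2.81) in cluster 3 and of 1.17 (0.784 to 1.72) in cluster 5, an interval that spans 1. In cluster 3, 2 of the 7 genes were at least 2-fold lower, beside 6.29% of genes, while cluster 5 had 3 such genes, beside 12.7%. Entpd1 had a ratio of 0.962 (0.758 to 1.21) in cluster 3 and 0.569 (0.432 to 0.742) in cluster 5. Cluster 3 was also where border macrophage genes such as Pf4 and Mrc1 led, yet the 6 border macrophage markers summed to 91.1 CPM in cKO IL-33, 13.8 CPM in WT IL-33 and 77.2 CPM in WT vehicle over all cells, with Lyve1 at 0 in WT IL-33. Without the cells that held border macrophage UMIs, the ratios of all 7 genes kept their direction in the comparisons with WT IL-33.

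Between cKO IL-33 and WT vehicle the higher Entpd1 level was found in 4 of the 5 clusters with 50 or more cells in both libraries. Its ratio was 1.33 (1.27 to 1.40) in cluster 0, 1.31 (1.23 to 1.40) in cluster 2, 1.40 (1.28 to 1.53) in cluster 3, 1.22 (1.05 to 1.42) in cluster 4 and 1.01 (0.839 to 1.21) in cluster 5. Gpr34 had ratios of 1.19, 1.14, 1.14 and 1.20 in clusters 0, 2, 3 and 4, and 1.05 (0.947 to 1.17) in cluster 5. P2ry12 lay slightly under 1 in all 5 clusters, between 0.881 (0.839 to 0.925) in cluster 4 and 0.948 (0.891 to 1.01) in cluster 5. Entpd1 was thus at 448, 446 and 336 CPM in cluster 0 and at 543, 549 and 415 CPM in cluster 2 in cKO IL-33, WT IL-33 and WT vehicle. In these clusters both IL-33 libraries had a like level of Entpd1, above that of vehicle, and between cKO IL-33 and WT IL-33 its ratio was 1.004 (0.879 to 1.15) and 0.989 (0.867 to 1.13).

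Sex calls within WT IL-33 bear on these levels, since that library held large numbers of both calls. In 802 female-called cells without Y-linked UMIs P2ry12 was at 1103 CPM, and in 1095 male-called cells at 707 CPM, a ratio of 1.56 (1.49 to 1.63). Gpr34 had a ratio of 1.67 (1.55 to 1.80), P2rx7 1.37 (1.17 to 1.60), P2ry13 1.31 (1.20 to 1.43) and Entpd1 1.27 (1.16 to 1.39), while P2ry6 was at 1.08 (1.02 to 1.14) and P2rx4 at 0.937 (0.819 to 1.07). Cluster 1 held 74.2% of the female-called and 85.5% of the male-called cells, so the split by sex was also partly a split by cluster. Within cluster 1 P2ry12 was still higher in female-called cells, at 770 CPM against 520 CPM (1.48, 1.39 to 1.57), and within clusters 0 and 2 it was not, at 3016 CPM in 145 female-called and 3234 CPM in 88 male-called cells (0.933, 0.862 to 1.01). Among male-called cells of clusters 0 and 2, Entpd1 was at 552 CPM in the 88 cells of WT IL-33 and 359 CPM in the 1835 cells of WT vehicle, a ratio of 1.54 (1.31 to 1.79). The higher Entpd1 level in those clusters was therefore also present within 1 sex call. A further 305 cells of WT IL-33 held both Xist and Y-linked UMIs, 93.1% of them in cluster 1. The labels do not say how many mice contributed to each sex call.

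The 7 genes formed a pair and a larger set by their pattern over the 15 sums per library and cluster of 50 or more cells, taken as log2(CPM + 1). P2ry12 had a Pearson r of 0.97 with Gpr34, 0.95 with P2rx7, 0.92 with P2ry13 and 0.74 with Entpd1. P2ry6 and P2rx4 had an r of 0.86 with each other and of -0.74 and -0.64 with P2ry12. These points share libraries, depth and cell states, and are not independent. The genes most like P2ry12 among 4203 genes were Arhgap5 (0.985), Ivns1abp (0.985) and Camk2n1 (0.984), and those most like Gpr34 were Hpgd (0.990), Glul (0.987) and Ulk2 (0.982). Man1a2 (0.960) and Arhgap5 (0.956) were most like P2ry13, and Ppp1r9a (0.984), Man1a2 (0.974) and Arhgap5 (0.974) most like P2rx7. For P2ry6 they were Adgre1 (0.960), a macrophage marker gene, Plek (0.955) and Lrp10 (0.932), for P2rx4 Pgd (0.910), Degs1 (0.897) and Noc2l (0.888), and for Entpd1 Pnrc1 (0.945), Ptpre (0.936) and Arl10 (0.936). With sums of 20 or more cells as points instead, 3 of the 3 nearest genes stayed for P2ry12, 2 for Gpr34, 1 each for P2ry6 and Entpd1, and 0 for P2ry13, P2rx4 and P2rx7. From cell to cell, Spearman's rho was taken over 21 pairs of genes in thinned cells. It lay between -0.0385 and 0.219 in cKO IL-33, -0.0251 and 0.526 in WT IL-33, and -0.0343 and 0.24 in WT vehicle. P2ry12 and Gpr34 were at the top in WT IL-33, with P2ry12 and P2ry13 next there at 0.316. The pair of P2ry6 and P2rx4 was near 0 from cell to cell, at -0.0249, 0.0452 and 0.016 in the same order of libraries. Most of these cells held no P2rx4 UMI.

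Genes around these receptors were read from 9 lists, with a minimum of 10 CPM in any library. Over the 8966 genes that passed it, 20.3% were at least 1.5-fold lower and 22.9% higher by 1.5-fold or more in WT IL-33 against WT vehicle, with a median log2 ratio of 0.04. Of 9 other nucleotide receptor genes, P2rx1 alone reached the minimum. P2rx1, an ATP-gated channel gene best known from platelets and smooth muscle, was at 19.5 CPM in cKO IL-33, 122 CPM in WT IL-33 and 25.6 CPM in WT vehicle, 4.76-fold higher (4.29 to 5.29) in WT IL-33 than in WT vehicle. The 5 platelet markers summed to 28.6, 24.3 and 19.2 CPM in the same libraries, and no cell held 3 or more of them. The ATP channels P2rx1 and P2rx4 were thus both higher in WT IL-33 than in WT vehicle, and P2rx7 lower.

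For adenosine, to which extracellular nucleotides are finally converted, 2 of 4 receptor genes passed the minimum. Adora2a, a receptor gene known for damping inflammation in myeloid cells, had 164 UMIs in WT IL-33 and 1 in WT vehicle, a ratio of 247 (43.7 to 9817), at 13.5 CPM in WT IL-33. Adora3 was at 149 CPM in WT IL-33 against 115 CPM in WT vehicle, a ratio of 1.29 (1.21 to 1.37). Of 13 genes of extracellular nucleotide breakdown, 3 passed: Enpp4 at 25.1 CPM in WT IL-33 against 6.62 CPM in WT vehicle, a ratio of 3.79 (3.06 to 4.71), Enpp2, whose product mainly makes lysophosphatidic acid, at 12.7 and 0.985 CPM, a ratio of 12.9 (7.89 to 22.3), and Enpp1 at 5.36 and 11.9 CPM, 2.23-fold lower (1.68 to 2.98). Nt5e, the gene of CD73 that makes adenosine from AMP, stayed below 10 CPM in all 3 libraries. Of 12 genes of ATP release and of nucleoside uptake and salvage, 6 passed. Only Slc29a3, an equilibrative nucleoside transporter gene of lysosomes, was past 1.5-fold among them, at 141 CPM in WT IL-33 against 410 CPM in WT vehicle, 2.90-fold lower (2.75 to 3.06).

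A list of G protein and effector genes was drawn up around P2Y12, not all of them particular to that receptor. Among its 22 measured genes, 5 were higher in WT IL-33 than in WT vehicle by 1.5-fold or more. By as much, 7 were lower, with a list median log2 ratio of -0.23. Pik3r5, a regulatory subunit gene of the PI3K that G protein βγ subunits activate, was at 245 CPM in WT IL-33 against 28.1 CPM in WT vehicle, a ratio of 8.71 (7.93 to 9.58). Vasp, an actin regulator, had a ratio of 3.96 (3.79 to 4.13), Rasa2 one of 2.31 (2.06 to 2.59) and the small GTPase gene Rac2 one of 2.19 (2.09 to 2.29). The G protein genes Gng2 and Gnaq were lower, at 57.4 CPM in WT IL-33 against 115 CPM in WT vehicle for Gng2, and at 92.4 and 185 CPM for Gnaq. Gnaq is not read here as a partner of P2Y12. Kcnk13, the gene of the potassium channel THIK-1 of microglia, was at 67.0 CPM in WT IL-33 against 73.0 CPM in WT vehicle, a ratio of 0.918 (0.840 to 1.003). Kcnk13, Adora3 and Nt5e were named after their values were seen.

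Among 10 measured genes tied to P2X7, P2rx4 included, 5 were higher in WT IL-33 than in WT vehicle by 1.5-fold or more and 1 lower, while P2rx7 itself was lower. Il1b had 14443 UMIs in WT IL-33 and 12 in WT vehicle. Nlrp3, the inflammasome sensor, had a ratio of 2.41 (2.22 to 2.62), Il18 one of 2.20 (1.99 to 2.43) and the adaptor gene Pycard one of 1.78 (1.73 to 1.84). Nek7, a kinase that binds NLRP3, was at 83.6 CPM in WT IL-33 against 187 CPM in WT vehicle, 2.24-fold lower (2.09 to 2.40). A further list, around Gpr34, held 5 measured genes of lysophosphatidylserine and related receptors and enzymes. Gpr183, listed as a related receptor gene and not as one for that lipid, was higher, with a ratio of 1.56 (1.504 to 1.62). Abhd12 (1.85-fold lower, 1.77 to 1.92) and Abhd6 (1.58-fold, 1.43 to 1.74) were lower. Abhd12 encodes a main lysophosphatidylserine hydrolase of brain.

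Among 4 measured genes next to the 7, 3 were at least 1.5-fold lower in WT IL-33 than in WT vehicle and 0 higher. Med12l, which contains P2ry12 and P2ry13 on the other strand, was at 76.7 CPM in cKO IL-33, 25.3 CPM in WT IL-33 and 88.3 CPM in WT vehicle, 3.49-fold lower (3.08 to 3.95) in WT IL-33 than in WT vehicle. Its order over the libraries was that of P2ry12, with which its exons overlap, and whether its reads came from P2ry12 was not tested. Cask, around Gpr34, was 1.59-fold lower (1.38 to 1.83) and Anapc5, a neighbour of P2rx4 and P2rx7, 1.51-fold lower (1.37 to 1.66). Between cKO IL-33 and WT vehicle, only Il1b (44 against 12 UMIs, a ratio of 3.83, 1.99 to 7.97) and Enpp2 (7 against 18 UMIs, a ratio of 0.406, 0.143 to 1.02) of the listed genes at the minimum were past 1.5-fold. Over all 8966 genes, 1.62% were at least 1.5-fold lower and 2.92% at least 1.5-fold higher in cKO IL-33 than in WT vehicle.

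**Figure D5:**
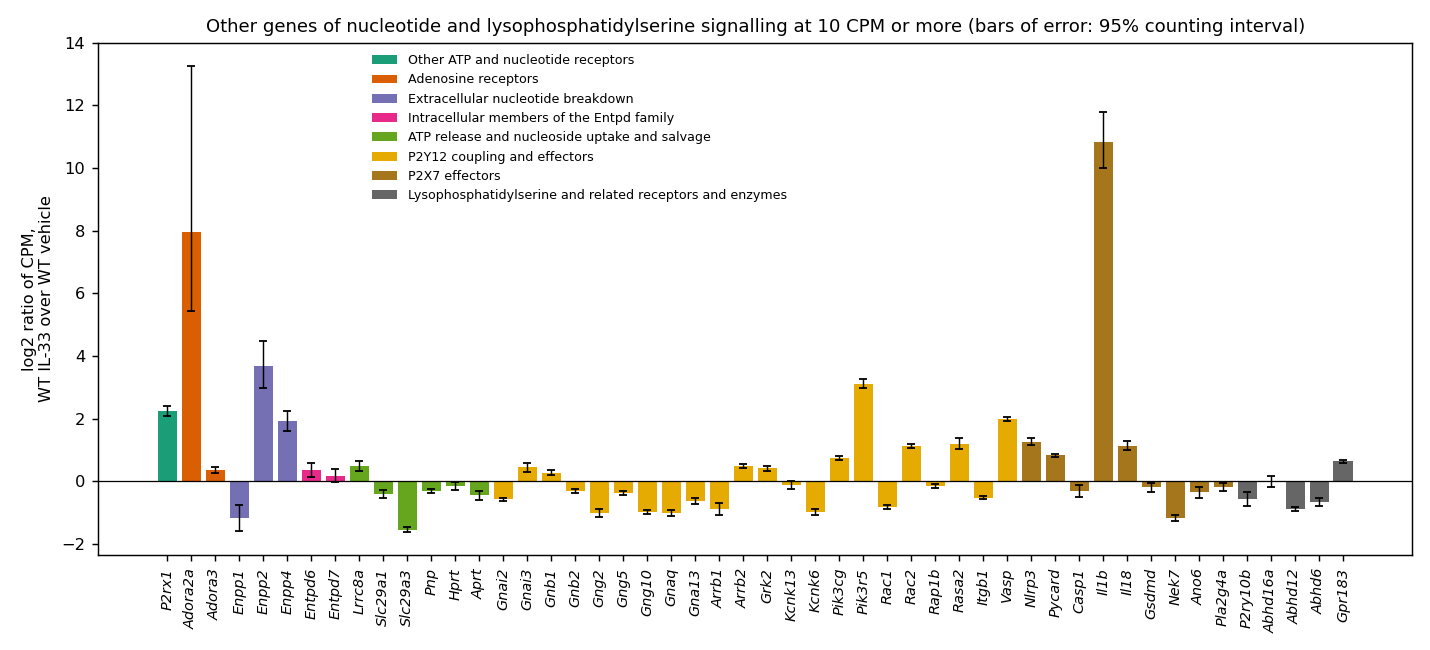
Log2 ratio of the CPM in WT IL-33 over WT vehicle for the genes of the related lists that reached 10 CPM in any library (bars, coloured by list), without the 7 genes and their neighbours, with 95% counting intervals. Il1b and Adora2a are the tallest bars, followed by Enpp2, Pik3r5, P2rx1, Vasp and Enpp4, and Slc29a3 is the lowest of the bars drawn.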

How the data were processed

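CD45+ cells of mouse thalamus were sequenced as 3 single-cell libraries on the 10x Chromium platform after enrichment on a 22% Percoll gradient and sorting, per the labels' protocols. The authors used Cell Ranger 5.0 and Seurat 4.0.1 with GRCm38 (mm10), per the submitters' processing notes. The deposited values are UMI counts per gene and cell, not normalized, with the authors' clusters and cell cycle calls. The sources state neither the filter on cells (those present hold 2100 to 19987 UMIs) nor any removal of doublets, and no doublet caller was run. UMIs were summed per library, or per library and cluster, and divided by their total to CPM, with exact Poisson intervals for levels, exact conditional binomial intervals for ratios and exact binomial (Clopper-Pearson) intervals for shares. No pseudocount was used in ratios. The background was all genes that reached 50 CPM in one of the 2 libraries compared. Groups came from the labels, and with 1 library each no test was made. The 7 genes, the related lists and the alternatives were chosen with earlier results of these data known. From each list, genes at 10 CPM or more and at least 1.5-fold apart between WT IL-33 and WT vehicle were named, at most 6 per list by size of the ratio, and for each of the 7 genes the 3 with the highest Pearson correlation, of which 1 is not reported here. The 2-fold counts and the ratio intervals were checked on simulated library sums that held counting error only. That check does not cover variation between cells or mice. Python 3.11.15, numpy 2.4.6, scipy 1.17.1 and edgeR 4.0.16 (TMM factors, as an alternative) in R 4.3.3 were used.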

Additional observations from a re-analysis of the deposited data

How the results depend on the processing

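Each group was 1 library, so no replicate could be left out. No paired analysis was possible because each group has 1 library, which leaves no spread within a group. The ratios of the 7 genes were recomputed with other scalings, thinned or shallow cells, other cell filters and cells of 1 sex call. Over these, P2ry12 in WT IL-33 against WT vehicle stayed 3.86- to 5.10-fold lower, Gpr34 3.24- to 4.42-fold, P2ry13 2.17- to 2.52-fold, P2rx7 1.89- to 2.30-fold and Entpd1 1.42- to 1.66-fold lower, while P2ry6 stayed 1.15- to 1.42-fold and P2rx4 1.43- to 1.66-fold higher. Entpd1 in cKO IL-33 against WT vehicle stayed between 1.32 and 1.38, but that comparison was not made within 1 sex call. The cKO IL-33 library held 39 male-called cells and the WT vehicle library 8 female-called cells. P2ry6 in cKO IL-33 against WT vehicle turned to 0.987 with TMM factors and 0.952 in cells of at most 5000 UMIs.

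Restricting to 1 deposited cluster, an alternative chosen after seeing the data, took out cluster 1. In WT IL-33 against WT vehicle, cluster 0 alone gave 1.33 for Entpd1 and 1.01 for P2ry13, and cluster 2 alone 1.32 for Entpd1 and 1.13 for Gpr34. In cKO IL-33 against WT IL-33, cluster 0 gave 1.02 for P2ry6, and cluster 2 gave 0.989 for Entpd1 and 0.981 for P2rx7. The genes of the 7 at least 2-fold lower in WT IL-33 than in WT vehicle numbered 0 in either cluster (3 in all cells). Of all genes, 1.18% in cluster 0 and 1.13% in cluster 2 were lower by that much. Those of the 7 at least 2-fold higher in cKO IL-33 than in WT IL-33 also numbered 0 (3 in all cells). Of all genes, 27 of 3899 in cluster 0 and 15 of 4153 in cluster 2 were higher by that much. That second count of the 7 was 5 in cells of at most 5000 UMIs, beside 465 of 4133 genes. It was also 5 at 1.5-fold, beside 20.3% of genes. At 1.5-fold, 1 of the 7 was higher in WT IL-33 than in WT vehicle, beside 23.3% of genes. Genes of the 7 near 2-fold moved both of their counts in further settings. Without the single clusters, Entpd1 in cKO IL-33 against WT IL-33 ranged from 1.79 to 2.07. P2rx7 in WT IL-33 against WT vehicle ranged from 1.89- to 2.30-fold lower.

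Of all genes, 883 were at least 2-fold apart between WT IL-33 and WT vehicle, 891 between cKO IL-33 and WT IL-33 and 17 between cKO IL-33 and WT vehicle. With a 10 CPM minimum they numbered 1951, 1839 and 79, with none 7433, 7237 and 4317, and at 1.5-fold 1729, 1695 and 82. The first and second counts were 245 and 165 in cluster 0 and 222 and 123 in cluster 2. P2rx4 and P2rx7, with 1305 and 970 UMIs in WT IL-33, had the widest intervals of the 7 genes relative to their levels.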

Other observations

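By the authors' cell cycle calls, P2ry12 was lowest in G2M cells of each library, at 3085 CPM in cKO IL-33, 820.3 CPM in WT IL-33 and 3198 CPM in WT vehicle, against 3605, 923 and 3687 CPM in G1 cells of the same libraries. The ratio of Gpr34 to P2ry12 UMIs was 0.406 (0.3997 to 0.412) in cKO IL-33, 0.389 (0.375 to 0.403) in WT IL-33 and 0.327 (0.322 to 0.332) in WT vehicle. After thinning, the variance of UMIs per cell was 3.95 times the mean for P2ry12 in WT IL-33, 2.38 times in cKO IL-33 and 2.50 times in WT vehicle. For Gpr34 it was 3.05, 1.78 and 1.76 times in the same order. For P2rx7 it was 1.08, 1.06 and 1.02 times.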
